A study of Mus musculus with 18 samples.

Results

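Carriers of amino acids and of monocarboxylates such as lactate were followed through 5 cell types and 2 brain regions, hippocampus (Hip) and prefrontal cortex (PFC), in mice with and without a gut microbiota. The members were all 44 genes, of 30905 measured, whose symbols begin with Slc7a, Slc16a, Slc38a or Slc43a and a number, 16 from Slc7a, 14 from Slc16a, 11 from Slc38a and 3 from Slc43a. The name of 1 of the 16, Slc7a6os, comes from its place opposite Slc7a6, and it encodes no transporter. All 44 had at least 1 UMI (unique molecular identifier, 1 counted RNA molecule). Single nuclei from 9 Kun Ming mice aged 8 weeks were sequenced, with 3 mice germ-free (GF), 3 kept specific pathogen free (SPF) and 3 of the CGF group, GF mice kept together with SPF mice for the last 4 weeks in gnotobiotic isolators. SPF mice were raised apart from the other groups, so that housing and microbiota cannot be told apart where GF and SPF mice are compared. Each mouse gave 1 Hip library and 1 PFC library, 18 in all, with 3 per group and region.

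Transporters of the Slc7a family carry large neutral, cationic and cysteine-related amino acids across the cell membrane, and several of them work only as pairs with the heavy chain Slc3a2 (CD98). Slc16a genes encode the monocarboxylate transporters, of which Slc16a1 (MCT1) and Slc16a7 (MCT2) move lactate, pyruvate and ketone bodies. Slc38a genes encode sodium-coupled neutral amino acid transporters that carry glutamine between glia and neurons, and Slc43a1 and Slc43a2 encode transporters of large neutral amino acids. In brain, endothelial cells of the blood-brain barrier use such carriers to take amino acids and lactate from blood, and astrocytes, oligodendrocytes and neurons use them to exchange fuel and glutamine.

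Of the 138000 nuclei kept, 119053 (86.3%) were given 1 of 5 cell types from marker genes that held no member, namely 1192 of endothelium, 9827 astrocytes, 6528 oligodendrocytes, 98962 neurons and 2544 microglia. Separate check markers followed the names in 4 of the 5 types. The 5 endothelial ones together had a median of 6218 CPM (UMIs per 1000000 UMIs of the library and type) in endothelium and of at most 29.7 in the other types, and those of astrocytes, oligodendrocytes and microglia were likewise far highest in their own type. The 5 neuronal check markers (among them Syp, Stmn2, Syt4 and Nefl) did not follow the name, at a median of 741 in neurons and of 565 to 1038 in the other types. Slc17a7, the vesicular glutamate transporter of excitatory neurons, was likewise at 245 ± 36.7 CPM in Hip neurons and at 146 ± 48.4 to 223 ± 68.6 in the other Hip types (mean ± SD, n = 9 libraries). Neuronal transcripts were thus counted in nuclei of every type, and a low level of a neuron-rich member in another type was not read as expression there. Strand use in counting is not given in the sources used here. Of the members, 14 overlap a gene on the other strand, among them Slc7a5, Slc7a10, Slc7a11, Slc7a14 and Slc7a7. If strand was not used, their counts may include reads of that gene.

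Depth and composition set 6 of the 18 libraries apart. The Hip libraries held 49067853 to 63217083 UMIs and the GF PFC libraries 59126586 to 71463928, against 20336250 to 26949210 in the 6 PFC libraries of SPF and CGF mice. Mitochondrial UMIs made up 0.359 to 0.594% in GF PFC, against 1.66 to 3.22% in SPF and 1.28 to 2.24% in CGF PFC. GF was thus the lowest group there, whereas it was the highest in Hip. Of 9640 genes with a mean of at least 10 CPM, 181 were more than 4-fold lower and 51 more than 4-fold higher in all 6 of these than in all of the other 12, and Slc16a4 was the only member among them. No gene of the 9640 differed by that much between the GF Hip libraries and the other 6 Hip libraries. The 6 libraries hold every PFC sample of SPF and CGF mice, so the comparison of GF mice with both other groups in PFC, and that of Hip with PFC over all mice, cannot be told apart from this difference between libraries. Hip comparisons, CGF against SPF mice in both regions, and Hip against PFC within GF mice do not cross it.

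Promoters are shown for members on which the results turn, a pair rich in endothelium (Slc7a1 and Slc16a1) and a pair rich in astrocytes (Slc7a11 and Slc7a10). Each is the 250 bases before the RefSeq start on the gene's own strand, on GRCm38.p6, where 30 of the 44 members had an entry. They lie at chr5:148399905-148400154 (minus strand), chr3:104638414-104638663 (plus strand), chr3:50443614-50443863 (minus strand) and chr7:35186135-35186384 (plus strand), in the order named, and the GENCODE vM21 starts of these genes are within a few bases of the RefSeq ones. Capitals mark the E box CACGTG or the C/EBP-ATF element TGATGNAA, the sequence through which amino acid shortage is known to act on many transporter genes, on either strand.
Slc7a1: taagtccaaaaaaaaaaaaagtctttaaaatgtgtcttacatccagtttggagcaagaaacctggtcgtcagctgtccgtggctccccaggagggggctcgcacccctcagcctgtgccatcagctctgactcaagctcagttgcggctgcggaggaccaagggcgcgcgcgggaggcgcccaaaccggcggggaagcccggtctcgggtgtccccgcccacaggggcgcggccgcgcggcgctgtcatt
Slc16a1: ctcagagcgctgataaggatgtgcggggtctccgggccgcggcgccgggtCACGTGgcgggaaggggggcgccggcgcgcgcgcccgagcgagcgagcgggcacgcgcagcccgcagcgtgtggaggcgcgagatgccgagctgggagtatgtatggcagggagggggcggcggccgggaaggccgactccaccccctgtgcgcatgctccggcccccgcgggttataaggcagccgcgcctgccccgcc
Slc7a11: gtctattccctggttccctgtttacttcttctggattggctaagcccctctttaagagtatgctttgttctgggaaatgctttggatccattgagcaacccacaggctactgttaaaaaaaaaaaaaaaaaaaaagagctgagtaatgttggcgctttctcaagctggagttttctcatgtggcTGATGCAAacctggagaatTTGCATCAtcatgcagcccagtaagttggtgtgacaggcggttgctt
Slc7a10: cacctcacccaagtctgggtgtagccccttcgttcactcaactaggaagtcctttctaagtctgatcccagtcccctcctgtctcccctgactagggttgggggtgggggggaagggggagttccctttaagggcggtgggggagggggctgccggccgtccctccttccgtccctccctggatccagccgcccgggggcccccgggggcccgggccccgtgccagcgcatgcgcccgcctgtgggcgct
The Slc7a11 window held TGATGNAA on both strands, whereas 3.45% of all 32851 promoter windows of this length held it at all, and 2 of the 30 member windows did (Slc7a11 and Slc7a7). CACGTG was in 6.02% of all windows and in 6 of 30 member windows, among them that of Slc16a1. The Slc7a1 and Slc7a10 windows held neither. A match is a run of letters and not a bound site.

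Which cell type uses which carrier was the first question. Of the 44 members, 30 reached a mean of 20 CPM (here with totals scaled by the TMM factors of edgeR) in at least 1 type, and 25 of the 30 were highest in the same type in both regions, 8 in endothelium, 7 in microglia, 4 in neurons, 3 in astrocytes and 3 in oligodendrocytes. In edgeR's quasi-likelihood test of each type against the mean of the other 4, with the library as a block, 10 of 30 members tested in Hip were higher in endothelium, 6 in astrocytes, 8 in oligodendrocytes, 13 in neurons and 10 in microglia. The same share over all genes was 24.1%, 27.8%, 26.7%, 38.7% and 22%, in that order. In PFC 26 members could be tested, and 8, 6, 6, 9 and 10 were higher, beside 23.6%, 25.9%, 20.7%, 34.6% and 19.2% of all genes. As a share of those tested, members lay above all genes in endothelium and microglia of both regions and below them in Hip astrocytes, and they were closer to all genes in the other types.

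**Figure D1:**
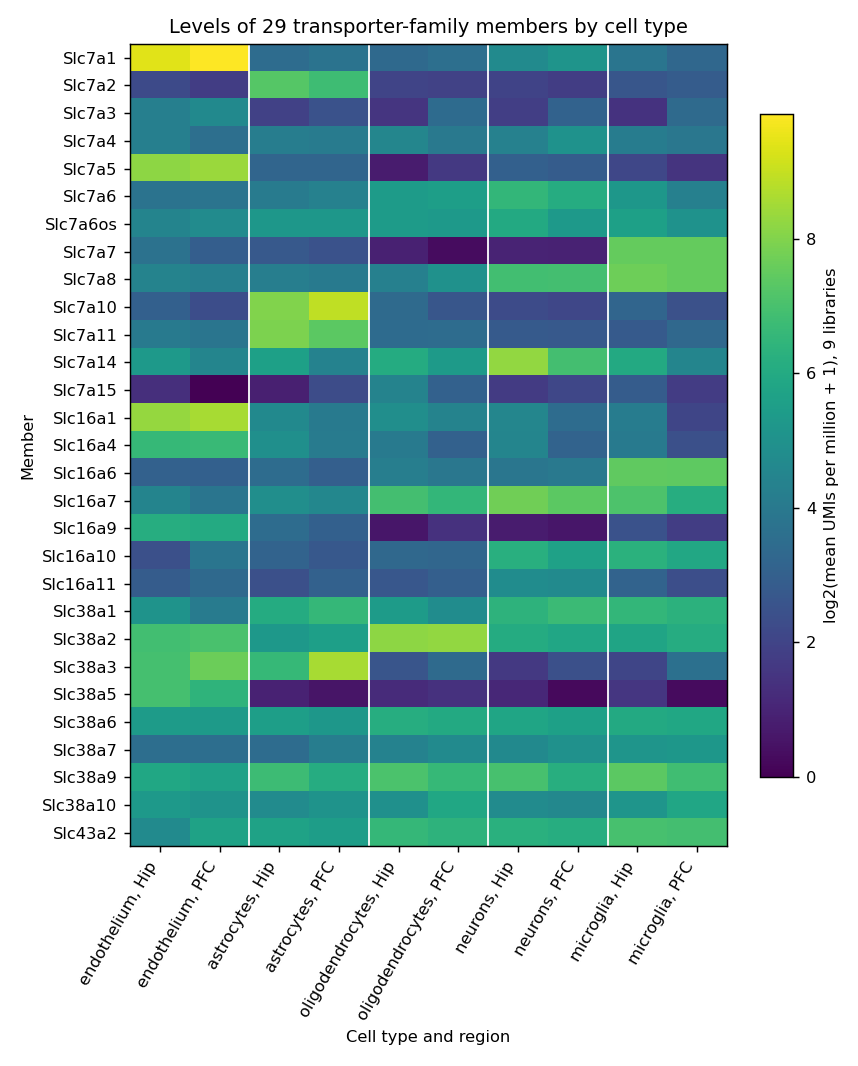
Mean level over the 9 libraries of a region, as log2(CPM + 1) by colour, for 29 members that reached 20 CPM in at least 1 of the 5 types (rows) in each type of Hip and PFC (columns). Slc7a1, Slc7a5, Slc16a1 and Slc38a5 stand out in endothelium, Slc7a10, Slc7a11 and Slc7a2 in astrocytes, Slc38a2 in oligodendrocytes and Slc7a7 and Slc16a6 in microglia.

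Endothelium was marked by carriers of cationic, large neutral and glutamine-like amino acids and of lactate. Slc7a1, the cationic amino acid transporter that takes up arginine and lysine, was at 693 ± 166 CPM in Hip and 932 ± 278 in PFC (mean ± SD, n = 9 libraries each), and the next type, neurons, was at 25.2 and 33.9. It was highest in endothelium in 9 of 9 libraries of each region. The difference from the mean of the other types was 5.74 ± 0.12 in Hip and 6.06 ± 0.15 in PFC (log2 ± SE). Slc7a5 (LAT1), which carries leucine, tryptophan and other large neutral amino acids with Slc3a2, was at 291 ± 109 and 333 ± 106, a difference of 6.40 ± 0.16 and 6.33 ± 0.19. Slc38a5, a glutamine transporter, was at 124 ± 45.6 in Hip and 84.3 ± 52.2 in PFC, and at a mean of at most 1.95 in any other type. Slc16a1 (MCT1), the main lactate carrier of the barrier, was at 313 ± 121 and 377 ± 105, 3.84 ± 0.13 and 4.97 ± 0.15 above the other types. The carriers Slc16a4 (96.5 ± 38.8 and 102 ± 21.1) and Slc16a9 (69.3 ± 26.2 and 63.9 ± 16.7), whose substrates are less settled, were also highest in endothelium in all 18 libraries.

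Astrocytes were set off by 3 Slc7a members. Slc7a10 (Asc-1), a carrier of small neutral and D-amino acids such as serine, was at 255 ± 64.1 CPM in Hip and 489 ± 129 in PFC, 5.23 ± 0.12 and 6.79 ± 0.14 above the mean of the other types. Slc7a11 (xCT), which takes up cystine for glutathione in exchange for glutamate, was at 238 ± 61.5 and 166 ± 33.4, and Slc7a2, another cationic amino acid transporter, at 151 ± 31.7 and 112 ± 27.2. The 3 genes were highest in astrocytes in all 18 libraries. Slc38a3 (SNAT3), through which astrocytes release glutamine, was shared with endothelium. In Hip it was at 122 ± 41.4 in endothelium and 95.8 ± 13.8 in astrocytes, with endothelium highest in 7 of 9 libraries, and in PFC it was at 201 ± 57.5 in endothelium and 378 ± 161 in astrocytes, with astrocytes highest in 9 of 9.

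Oligodendrocytes, neurons and microglia each had members of their own. Slc38a2 (SNAT2), a neutral amino acid transporter known to rise when cells are short of amino acids, was at 291 ± 113 CPM in Hip oligodendrocytes and 310 ± 128 in those of PFC, ahead of endothelium at 115 and 129. Slc7a14, an orphan of the cationic family, was the neuronal member, at 310 ± 55.2 in Hip and 119 ± 23.6 in PFC. Slc16a7 (MCT2), the lactate carrier of neurons, was at 213 ± 34.5 and 166 ± 35.0 there, and at 119 ± 19.5 in Hip oligodendrocytes and 136 ± 56.2 in Hip microglia. Microglia were highest in Slc7a7 (y+LAT1), at 185 ± 36.7 and 182 ± 58.5, and in Slc16a6 (MCT7), at 175 ± 45.3 and 171 ± 50.2, in 9 of 9 libraries of each region. Slc7a8 (LAT2) was at 206 ± 51.7 and 186 ± 39.5 in microglia and at 118 ± 16.3 and 119 ± 7.67 in neurons. Microglia and neurons overlapped in Slc16a10 (TAT1), the aromatic amino acid carrier, at 78.0 ± 27.6 and 73.6 ± 14.8 in Hip. In Slc38a9, the arginine sensor of the lysosome, microglia at 164 ± 38.3 overlapped with oligodendrocytes at 133 ± 12.5 in Hip. Slc38a1, Slc38a6, Slc38a7, Slc38a10 and Slc7a4 likewise had no type that led in every library of a region.

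**Figure D2:**
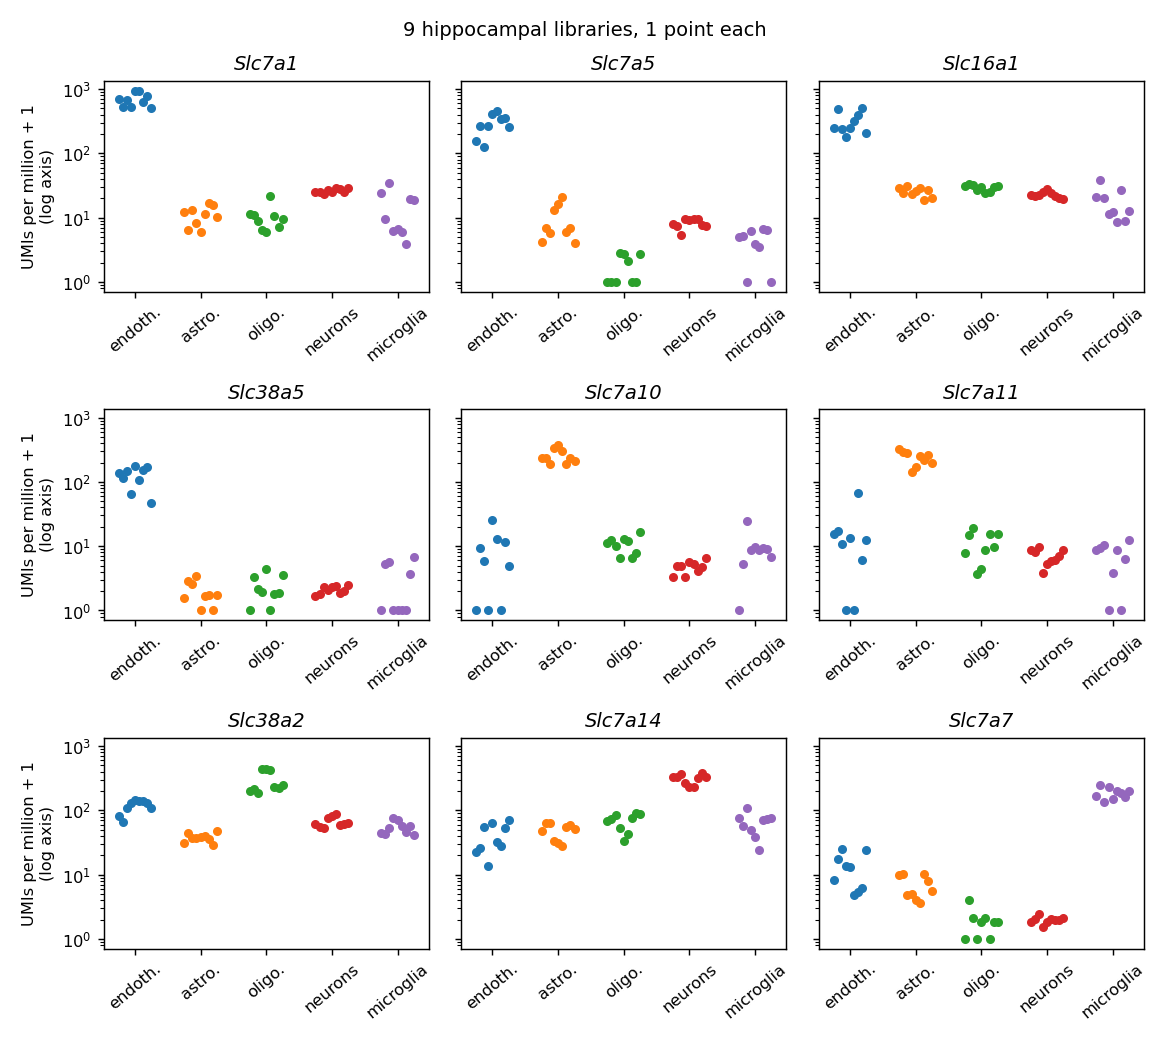
CPM + 1 (log axis) of 9 members in the 5 types of Hip, 1 point per library (9 libraries). The endothelial points of Slc7a1, Slc7a5, Slc16a1 and Slc38a5, the astrocyte points of Slc7a10 and Slc7a11, the oligodendrocyte points of Slc38a2, the neuronal points of Slc7a14 and the microglial points of Slc7a7 lie above those of every other type.

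The 14 members under 20 CPM in all 5 types were Slc7a9, Slc7a12, Slc7a13, Slc16a3, Slc16a5, Slc16a8, Slc16a12, Slc16a13, Slc16a14, Slc38a4, Slc38a8, Slc38a11, Slc43a1 and Slc43a3. Their highest means ran from 0.0466 for Slc7a9 to 15.9 for Slc16a12. Several of them, and some of the 30, were higher in nuclei outside the 5 types, which were few and are given as sums over the libraries of a region with exact Poisson 95% intervals that cover counting error only. Mural cells, the pericytes and smooth muscle of vessels, held Slc38a11 at 667 CPM (577 to 768) in Hip and 852 (770 to 940) in PFC, and the creatine carrier Slc16a12 at 233 (181 to 295) and 331 (281 to 388). Choroid plexus nuclei of Hip held Slc16a8 (MCT3) at 60.4 (52.8 to 68.8). Fibroblasts held Slc7a11 at 1831 (1764 to 1900) in Hip and 595 (560 to 631) in PFC and Slc38a2 at 916 (869 to 965) and 1764 (1705 to 1826). The groups entered these sums unequally. In PFC a GF library held 343056 to 600005 fibroblast UMIs, against 43319 to 66425 in SPF and 58380 to 127869 in CGF. The mix of groups in the summed levels was not accounted for. Ependymal nuclei of Hip held Slc38a1 at 976 (923 to 1030). Slc7a2 was at 343 (314 to 373) and 318 (293 to 345) in fibroblasts, Slc16a11 at 157 (137 to 178) and 327 (301 to 354), and Slc16a9 at 88.9 (79.6 to 98.96) in choroid plexus of Hip and 151 (134 to 169) in fibroblasts of PFC. These 5 members were thus higher outside the 5 types than in the astrocytes (Slc7a11 and Slc7a2), oligodendrocytes (Slc38a2), neurons (Slc16a11) or endothelium (Slc16a9) that led among them, and the values carry no test.

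Neurons were split by their glutamate and GABA markers into excitatory neurons and interneurons, and 35 members and regions were compared by an exact sign-flip permutation test over the 9 libraries (two-sided, smallest p 0.00391). At a p adjusted over all 13535 genes and regions tested (mean of at least 20 CPM in neurons), 25 of the 35 passed 0.05, beside 71.9% of all genes, so the members' share was that of the background. Slc38a1 (SNAT1), the glutamine carrier linked to GABA synthesis, was higher in interneurons in 9 of 9 libraries of both regions, at 115 ± 15.9 against 57.2 ± 4.74 CPM in Hip and 171 ± 31.3 against 81.9 ± 18.98 in PFC (mean ± SD, n = 9, exact permutation, adjusted p = 0.0071). The monocarboxylate carrier Slc16a7 went the other way in all 18 libraries, at 96.3 ± 8.14 in interneurons against 174 ± 15.4 in excitatory neurons of Hip. Slc7a14 turned with the region. It was lower in interneurons in 9 of 9 Hip libraries (186 ± 29.2 against 246 ± 27.5) and higher in 9 of 9 PFC libraries (152 ± 18.4 against 97.1 ± 15.0).

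The central comparison asked how the absence of a microbiota bore on these carriers in Hip, which the library split above does not cross. The GF Hip libraries nevertheless differed in quality measures, with 0.645 to 1.096% mitochondrial UMIs against 0.128 to 0.471% in SPF and 0.0770 to 0.218% in CGF, and with a mean of 5510 to 6856 UMIs per nucleus against 7522 to 8195 in SPF and 6726 to 8846 in CGF. The part of this in the results below was not tested. Between GF and SPF mice, edgeR called 10 of 26 members tested in astrocytes (3 higher and 7 lower in GF), 7 of 22 in oligodendrocytes (2 and 5), 18 of 38 in neurons (8 and 10), 1 of 16 in microglia (higher) and 0 of 11 in endothelium, at an adjusted p of 0.05. Over all genes 35.2%, 35.4%, 47.5%, 23.6% and 9.75% were called, in that order, and the members' share was close to this in astrocytes, oligodendrocytes and neurons. The median difference of the members tested was -0.16, -0.19, -0.09, -0.18 and -0.25 (log2, GF minus SPF), beside -0.059 in endothelium and 0.00098 to 0.041 in the other types for all genes tested. In endothelium 2 members had an unadjusted p under 0.05, among them Slc7a1. Fewer members were called in astrocytes and oligodendrocytes with thinned counts and with DESeq2, as given at the end. Members picked below for large differences came only from those called whose 2 groups did not overlap, so their lack of overlap adds no support.

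**Figure D3:**
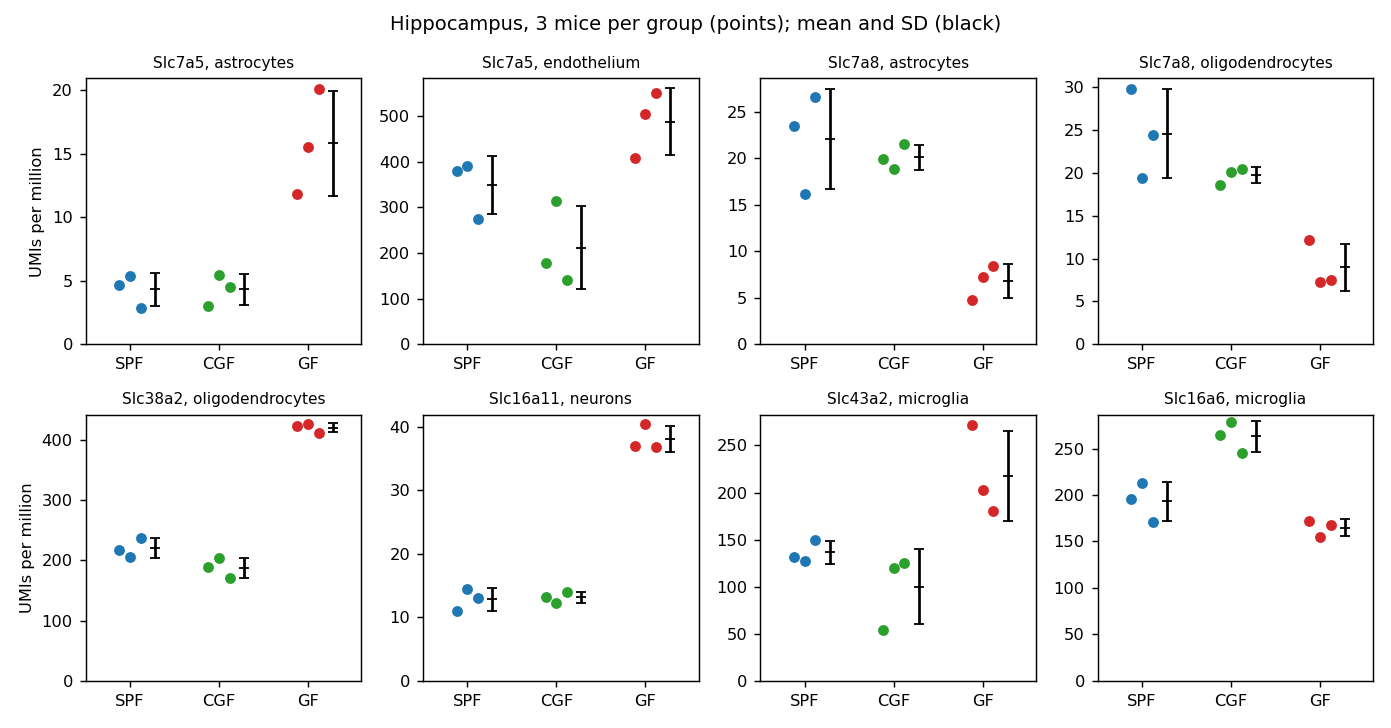
CPM of 8 member and type pairs in Hip for SPF, CGF and GF mice, 1 point per library (n = 3 each), with mean and SD in black. GF points lie apart from both other groups for Slc7a5 and Slc7a8 in astrocytes, Slc7a8 and Slc38a2 in oligodendrocytes, Slc16a11 in neurons and Slc43a2 in microglia.

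In Hip astrocytes the 2 light chains for large neutral amino acids went in opposite directions. Slc7a5 (chr8:121881150-121907694 on GRCm38, as all gene positions here) was at 11.9, 15.5 and 20.1 CPM in the 3 GF libraries, at 4.69, 5.37 and 2.88 in SPF and at 3.00, 5.44 and 4.50 in CGF. Every GF library was above every other library, and the difference was 1.84 ± 0.37 from SPF (adjusted p = 0.00073) and 1.86 ± 0.35 from CGF (adjusted p = 0.00037, edgeR quasi-likelihood). These levels rest on 61, 22 and 28 UMIs in the GF, SPF and CGF sums. Over the Hip types, Slc7a5 was called higher in GF than in CGF mice in 3 of 3 tested (0.59 to 1.86). Against SPF mice it was called higher in 1 of 3 (0.32 to 1.84 over the 3). The endothelial check markers, from the type in which Slc7a5 is richest, lay between 11.4 and 23.9 in GF, between 17.7 and 40.4 in SPF and between 6.93 and 15.2 in CGF astrocytes. Their part was not tested. Slc7a8 (chr14:54722209-54781946) was at 4.75, 7.24 and 8.42 in GF, at 23.4, 16.1 and 26.6 in SPF and at 19.97, 18.8 and 21.5 in CGF, so that all GF libraries were below the others, by 1.64 ± 0.30 against SPF (adjusted p = 0.00038). Slc16a10, at 4.75, 4.14 and 3.88 in GF and 9.38, 9.76 and 7.91 in SPF, fell by 1.09 ± 0.37, a call lost with no filter on low counts, with thinned counts, with DESeq2 and without GF mouse 6 or 7 or SPF mouse 30 or 31. Beside these falls, the neuronal gene Slc17a7 also fell, by 0.48 ± 0.17 in astrocytes and 0.52 ± 0.14 in oligodendrocytes, although it rose by 0.33 ± 0.09 in neurons. The 5 neuronal check markers overlapped between groups, between 658 and 770 in GF, between 681 and 935 in SPF and between 525 and 818 in CGF astrocytes, and between 797 and 921, between 822 and 1019 and between 690 and 919 in oligodendrocytes. Slc7a8 and Slc16a10 were each called lower in GF than in SPF mice in 3 of 4 Hip types tested, neurons among them. Over the 4 types the differences were -1.64 to -0.33 for Slc7a8 and -1.37 to -0.51 for Slc16a10. The part of neuronal RNA in the falls of Slc7a8, Slc16a10 and Slc7a14, which in Hip were higher in neurons than in astrocytes, was not tested.

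The astrocyte gene Slc7a10 (chr7:35186385-35201114), named after its values were seen, rose in GF astrocytes. It was at 328, 373 and 302 CPM in GF, at 178, 211 and 200 in SPF and at 216, 213 and 173 in CGF, with no overlap between GF and either group (0.76 ± 0.12 against SPF, adjusted p = 0.00011). Slc7a2 and Slc7a11, the other astrocyte genes of the family, did not rise. Slc7a2 was 0.50 ± 0.14 lower in GF than in SPF astrocytes (adjusted p = 0.0073), a call lost without GF mouse 7 or SPF mouse 31. It was not called against CGF (-0.29 ± 0.13, adjusted p = 0.096). Slc7a11 was 0.55 ± 0.17 lower in GF than in CGF astrocytes (adjusted p = 0.013), a call lost without GF mouse 5 or 6. It was not called against SPF (-0.16 ± 0.17, adjusted p = 0.495). Slc38a3, at a mean of 102 in GF and 79.4 in CGF astrocytes, was not called. The astrocyte check markers in these nuclei lay between 2269 and 2435 in GF, between 2542 and 2725 in SPF and between 2495 and 2691 in CGF. Their part in these changes was not tested.

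In Hip oligodendrocytes 2 members rose, Slc38a2 among them, and 5 fell. Slc38a2 (chr15:96687392-96699730) was at 423, 426 and 411 CPM in GF, at 218, 205 and 237 in SPF and at 189, 204 and 171 in CGF. The GF libraries stood close together above all others, by 0.93 ± 0.12 against SPF (adjusted p = 6.3e-06) and 1.16 ± 0.12 against CGF (adjusted p = 4.9e-07). Slc7a8 was at 12.2, 7.30 and 7.45 in GF and at 29.8, 19.4 and 24.5 in SPF (-1.44 ± 0.29), Slc7a11 at 2.61, 3.24 and 7.45 and at 13.4, 8.10 and 13.9 (-1.46 ± 0.48), and Slc16a10 at 5.22, 4.05 and 2.13 and at 8.95, 10.53 and 11.4 (-1.37 ± 0.44). All 3 were without overlap but low, with 13 to 94 UMIs in the sum of a group. The call of Slc7a11 was lost with thinned counts and without GF mouse 5 or 6 or SPF mouse 30 or 32, and that of Slc16a10 with DESeq2 and without GF mouse 6 or 7 or SPF mouse 32. Among the types with check markers, Slc7a11 was highest in astrocytes, and it was higher still in Hip fibroblasts (1831 CPM as a sum over libraries). The astrocyte check markers in these oligodendrocytes lay between 68.1 and 90.9 in GF and between 115 and 178 in SPF. In CGF they lay between 144 and 159. Those of oligodendrocytes lay between 1429 and 1675, between 1024 and 1336 and between 1090 and 1323. Their part in these results was not tested.

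In Hip neurons the largest difference among the calls without overlap was in a monocarboxylate carrier. Slc16a11 (MCT11, chr11:70212752-70216417), a carrier of pyruvate, was at 37.0, 40.3 and 36.8 CPM in GF, at 10.97, 14.5 and 13.1 in SPF and at 13.1, 12.2 and 14.0 in CGF. The lowest GF library was far above the highest other one, and the difference was 1.57 ± 0.11 against SPF and 1.53 ± 0.11 against CGF (adjusted p = 2.6e-05 and 2.3e-05). It was seen in both classes of neurons, at 41.3 to 44.7 in GF against 10.96 to 14.4 in SPF excitatory neurons and at 17.9 to 33.0 against 7.24 to 10.48 in interneurons. Slc16a1 (MCT1) was also higher in GF excitatory neurons, at 21.6 to 25.6 against 14.7 to 16.2 in SPF and 15.8 to 17.2 in CGF. In interneurons it overlapped, at 9.76 to 16.3 in GF and 8.01 to 12.2 in SPF. Slc38a2 rose in neurons as in oligodendrocytes, from 44.3, 47.5 and 48.7 in SPF to 61.7, 65.7 and 71.1 in GF (0.50 ± 0.07). Slc7a14 fell by 0.42 ± 0.09 in neurons, by 0.80 ± 0.18 in astrocytes and by 0.97 ± 0.18 in oligodendrocytes, and Slc16a7 by 0.39 ± 0.09 in neurons. Beside these, the neuronal check markers in Hip neurons lay between 783 and 903 in GF, between 522 and 690 in SPF and between 471 and 545 in CGF. Their part was not tested. The 2 other members named for large changes in Hip neurons, Slc7a2 (-0.89 ± 0.18) and Slc16a12 (-0.86 ± 0.17), were at 1.20 to 2.96 CPM in GF and SPF neurons. Among the types with check markers Slc7a2 was highest in astrocytes and Slc16a12 in endothelium. As sums over the Hip libraries, Slc7a2 was higher still in fibroblasts (343 CPM) and Slc16a12 in mural cells (233 CPM). The part of RNA from other cells in these 2 changes was not tested.

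In Hip microglia Slc43a2 (LAT4, chr11:75531694-75577575), an exporter of branched-chain amino acids, was at 271, 202 and 180 CPM in GF, at 132, 127 and 150 in SPF and at 53.9, 120 and 126 in CGF. GF libraries were above all others, by 0.71 ± 0.23 against SPF (adjusted p = 0.022) and 1.17 ± 0.25 against CGF (adjusted p = 0.0009). The first of these was lost without GF mouse 5, SPF mouse 30 or SPF mouse 31 and with DESeq2. Slc43a2 was not particular to microglia. It was called higher in GF than in CGF mice in 4 of 4 Hip types tested (0.29 to 1.17). Against SPF mice it was called higher in 2 of 4 (0.15 to 0.71 over the 4). Slc16a6 was at 172, 154 and 167 in GF, 196, 212 and 171 in SPF and 265, 279 and 246 in CGF microglia, and was called only against CGF (-0.66 ± 0.19). Slc7a14 and Slc7a8 were also lower in GF than in CGF microglia, by 0.98 ± 0.33 and 0.65 ± 0.19. The call of Slc16a6 was lost with DESeq2, that of Slc7a8 without GF mouse 7, and that of Slc7a14 with DESeq2, with thinned counts and without CGF mouse 19 or GF mouse 7. Beside these, the microglial check markers lay between 3693 and 3982 in GF, 2633 and 3201 in SPF and 3247 and 3406 in CGF microglia, and Slc17a7 was 0.87 ± 0.18 lower in GF than in SPF and 0.56 ± 0.19 lower than in CGF microglia. The neuronal check markers overlapped, between 983 and 1181 in GF, between 1065 and 1520 in SPF and between 808 and 1174 in CGF. The astrocyte ones did not overlap between GF and the others, between 61.3 and 107 in GF, between 149 and 233 in SPF and between 181 and 188 in CGF. Their part in these results was not tested.

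Endothelium, where the carriers of the barrier are richest, had 1 call in Hip, and only against CGF mice. Slc7a5 was at 408, 504 and 551 CPM in GF, at 379, 390 and 275 in SPF and at 179, 314 and 141 in CGF endothelium. GF lay above CGF by 1.28 ± 0.30 (adjusted p = 0.011), a call lost without CGF mouse 17, CGF mouse 19 or GF mouse 7. Slc7a1 was at 796, 1176 and 1130 in GF and 709, 861 and 559 in SPF (0.57 ± 0.24, adjusted p = 0.14), with overlap. Slc16a1 was at 272, 305 and 381 in GF and 438, 559 and 224 in SPF (-0.29 ± 0.34). With 22 to 99 endothelial nuclei per GF Hip library, the precision was low.

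Over all 5 types, 45 of 113 member and type pairs were called between GF and CGF mice in Hip (18 higher and 27 lower in GF), 9 of 26 in astrocytes, 8 of 22 in oligodendrocytes, 23 of 38 in neurons, 4 of 16 in microglia and 1 of 11 in endothelium, beside 38.1%, 36.7%, 47.3%, 24.4% and 9.05% of all genes. Both comparisons share the GF libraries. Slc43a1 and Slc38a11 were called at very low levels, Slc43a1 at 0.179 to 0.184 in GF and 0.297 to 0.454 in CGF neurons and Slc38a11 at 1.05 to 1.28 and 1.64 to 3.43. The call of Slc38a11 was lost without GF mouse 5 and without CGF mouse 19, where the difference went from -0.99 to -0.64. Slc16a7 in astrocytes, at 13.4, 11.4 and 22.0 in GF and 34.4, 29.7 and 37.0 in CGF, differed by -1.04 ± 0.24, and Slc16a10 in oligodendrocytes by -1.52 ± 0.43. In Hip, Slc16a7 was highest in neurons, and the part of neuronal RNA in its difference in astrocytes was not tested.

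Genes that work with these carriers were read from 7 lists, chosen with earlier results of these data known, in the same Hip comparison of GF with SPF mice. The list counts are summed over types, with a gene counted once in each type where it was tested. The shares over all genes are per type, so the 2 are not like for like. The heavy chains and chaperones had 8 of 14 gene and type pairs higher and 0 lower in GF, lactate and glucose genes 27 of 50 higher and 2 lower, lysosomal amino acid sensing genes 22 of 49 higher and 2 lower, the amino acid response 7 of 21 higher and 2 lower, cystine and glutathione genes 5 of 25 higher and 3 lower, thyroid hormone genes 3 of 21 higher and 3 lower, and the glutamate-glutamine cycle 4 of 41 higher and 14 lower. Over all genes 6.75% were higher and 3% lower in endothelium, 19.3% and 15.9% in astrocytes, 20% and 15.4% in oligodendrocytes, 25.9% and 21.6% in neurons and 13.2% and 10.4% in microglia. In PFC, across the library split, the amino acid response went the other way, with 1 of 15 pairs higher and 9 lower in GF than in SPF and 0 higher and 9 lower than in CGF mice. Of the 9 lower than in SPF mice, 6 were in neurons. Against SPF in PFC the heavy chains and chaperones had 11 of 11 pairs higher, lactate and glucose genes 21 of 39 higher and 5 lower, lysosomal amino acid sensing genes 12 of 27 higher and 3 lower, cystine and glutathione genes 8 of 17 higher and 3 lower, thyroid hormone genes 6 of 18 higher and 2 lower, and the glutamate-glutamine cycle 4 of 34 higher and 5 lower. Over all genes in PFC 22.1% were higher and 13.7% lower in endothelium, 22.4% and 23.1% in astrocytes, 20.3% and 20.4% in oligodendrocytes, 32.3% and 30.8% in neurons and 19% and 19.5% in microglia. Slc3a2, the heavy chain of Slc7a5 and Slc7a8, was at 199, 195 and 244 CPM in GF astrocytes, at 52.9, 59.6 and 56.8 in SPF and at 56.4, 55.3 and 51.0 in CGF, without overlap (1.92 ± 0.13, adjusted p = 1e-08). It also rose in neurons (0.80 ± 0.05) and oligodendrocytes (0.61 ± 0.17) and was not called in endothelium (-0.23 ± 0.28) or microglia (0.28 ± 0.28).

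Bsg (basigin), the chaperone that brings MCT1 to the membrane, rose in 4 types, by 1.18 ± 0.16 in astrocytes, 0.998 ± 0.19 in oligodendrocytes, 1.53 ± 0.26 in neurons and 1.20 ± 0.20 in microglia. In endothelium it was at 5604 to 12082 CPM in GF and 2554 to 5913 in SPF and was not called (0.84 ± 0.29, adjusted p = 0.072). The lactate dehydrogenases Ldha and Ldhb, the pyruvate kinase Pkm and the mitochondrial pyruvate carrier subunit Mpc2 were higher in GF in all 5 types, Ldhb by 0.81 ± 0.17 in neurons to 1.94 ± 0.34 in endothelium and Mpc2 by 0.54 ± 0.06 to 1.95 ± 0.39 in the same types. Gclm, a subunit of the enzyme that starts glutathione synthesis, rose in 4 types, by 0.46 ± 0.10 to 1.17 ± 0.25. Lamtor2, a part of the Ragulator complex at the lysosome, rose by 1.66 ± 0.16 to 1.84 ± 0.27 in 4 types. In Hip endothelium the neuronal check markers overlapped, between 850 and 976 in GF, between 400 and 1032 in SPF and between 555 and 952 in CGF. The part of RNA from other cells in the rises of these genes was not tested.

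Mice that had gained a microbiota were then set against SPF mice. Of 113 member and type pairs in Hip, edgeR called 0, with 14 at an unadjusted p under 0.05 and a smallest adjusted p of 0.0806, and of 76 pairs in PFC it called 0, with 6 at an unadjusted p under 0.05 and a smallest adjusted p of 0.254. Over all genes 0%, 0.22%, 0.243%, 0.751% and 0.0883% were called in Hip endothelium, astrocytes, oligodendrocytes, neurons and microglia, and 0%, 0.131%, 0.287%, 0.337% and 0.0472% in PFC. DESeq2 called 1 pair in Hip, Slc16a4 in neurons, which was at 16.2, 22.1 and 17.1 in CGF and 12.2, 13.6 and 11.9 in SPF without overlap (0.56 ± 0.12 by edgeR), and 0 in PFC. For the members above, the difference between CGF and SPF mice in Hip was -0.02 ± 0.42 for Slc7a5 and 0.03 ± 0.12 for Slc7a10 in astrocytes, -0.23 ± 0.12 for Slc38a2 in oligodendrocytes, 0.03 ± 0.11 for Slc16a11 in neurons and -0.45 ± 0.28 for Slc43a2 in microglia. The errors leave room for differences in Slc7a5 and Slc43a2 that are not small.

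In PFC, GF mice were compared across the library split described above, so differences in Hip are given beside those in PFC. Between GF and SPF mice 9 of 20 members tested were called in astrocytes (6 higher and 3 lower in GF), 4 of 7 in oligodendrocytes (3 and 1), 20 of 35 in neurons (12 and 8), 3 of 5 in microglia (all higher) and 1 of 9 in endothelium (higher), beside 45.5%, 40.7%, 63.1%, 38.5% and 35.8% of all genes. Of these 37 pairs, the GF PFC mean lay within the range of the 9 Hip libraries and the mean of SPF and CGF PFC outside it in 23, both lay within it in 5, neither in 5, and the reverse held in 4. The same count over all called genes was not made, so it is no result about the members. Against CGF 34 of 76 pairs were called (22 higher and 12 lower in GF), 8 of 20 in astrocytes, 2 of 7 in oligodendrocytes, 22 of 35 in neurons, 0 of 5 in microglia and 2 of 9 in endothelium, beside 47.3%, 40.1%, 62.3%, 39% and 33.6% of all genes.

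**Figure D4:**
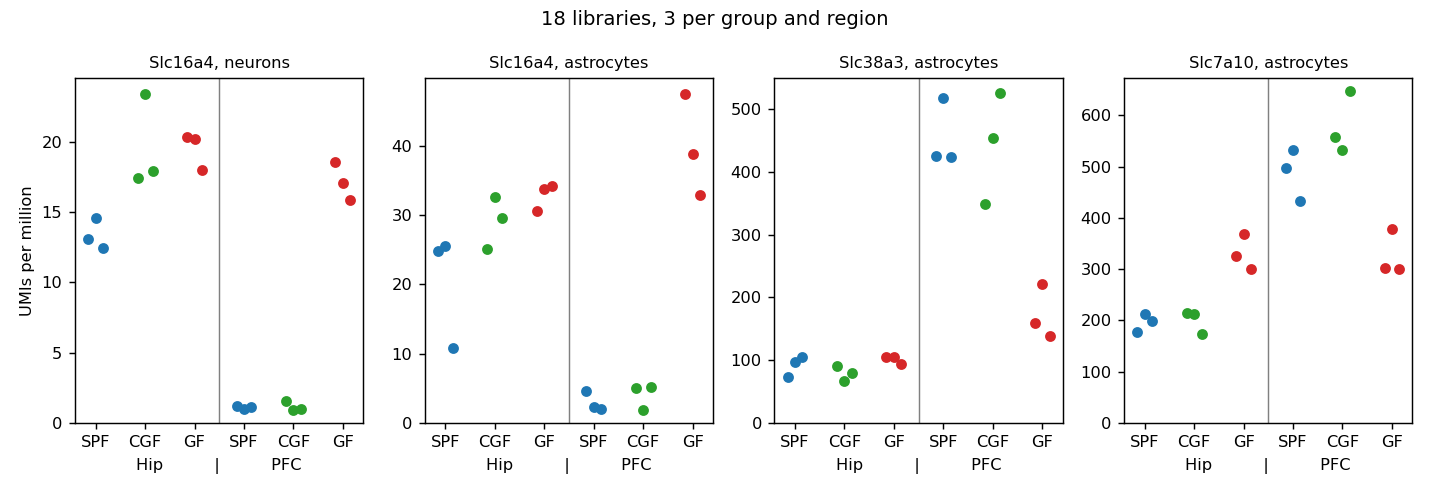
CPM of Slc16a4 in neurons and astrocytes and of Slc38a3 and Slc7a10 in astrocytes, 1 point per library, by region and group (n = 3 each), on the scale of the joint fit of both regions. For Slc16a4 in neurons the 3 GF PFC libraries (15.8 to 18.6) lie with the 9 Hip libraries (12.4 to 23.4) and the 6 PFC libraries of SPF and CGF mice lie far below (0.895 to 1.58), and for Slc38a3 in astrocytes the same 6 lie above the rest.

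Slc16a4 (chr3:107291230-107312115) was the member with the largest difference. In PFC neurons it was at 19.7, 17.99 and 16.6 CPM in GF, at 1.22, 1.02 and 1.20 in SPF and at 1.64, 0.941 and 0.970 in CGF (3.99 ± 0.20 against SPF, adjusted p = 2.2e-08), and in astrocytes at 48.6, 39.2 and 33.3, at 4.59, 2.28 and 1.96 and at 5.05, 1.88 and 5.06. In PFC oligodendrocytes the SPF libraries held 0 UMIs of it, the CGF libraries 1 and the GF libraries 46. Endothelium, where the gene is richest, showed no such gap, at 131, 105 and 72.4 in GF, 85.2, 115 and 108 in SPF and 105, 101 and 147 in CGF (-0.02 ± 0.33). In Hip neurons Slc16a4 was at 20.2, 19.98 and 17.7 in GF, 12.2, 13.6 and 11.9 in SPF and 16.2, 22.1 and 17.1 in CGF, so that GF was above SPF there too (0.62 ± 0.12, adjusted p = 0.0025) and overlapped with CGF (0.059 ± 0.12). It was also called against SPF in Hip astrocytes (0.67 ± 0.25) and oligodendrocytes (0.94 ± 0.35), but both calls were lost with thinned counts, with DESeq2 and without any of several single libraries, among them SPF mouse 32 in astrocytes (0.38) and SPF mouse 30 in oligodendrocytes (0.69). Slc16a4 was 1 of the 181 genes that were low in all 6 libraries that stood apart.

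Slc38a3 (chr9:107650634-107669530) in PFC astrocytes was at 163, 224 and 140 CPM in GF, at 424, 511 and 418 in SPF and at 348, 449 and 510 in CGF, without overlap (-1.36 ± 0.17 against SPF, adjusted p = 6.3e-07, beside 0.16 ± 0.16 in Hip). On the scale of the joint fit of both regions all 9 Hip values, at 67.0 to 105, were below the lowest PFC value of 138. It was also lower in GF PFC neurons (-1.63 ± 0.19, beside -0.64 ± 0.32 in Hip), where it was at 1.33 to 5.85. In the same neurons the astrocyte check markers lay between 128 and 138 in GF, between 203 and 263 in SPF and between 186 and 218 in CGF. Their part was not tested. Slc7a10 in PFC astrocytes was at 309, 381 and 304 in GF, 495, 525 and 426 in SPF and 558, 525 and 628 in CGF, so that GF was the lower group here (-0.54 ± 0.15) and the higher one in Hip. The astrocyte check markers in these nuclei were lower in GF as well, between 2167 and 2600 against between 2818 and 3466 in SPF and between 2906 and 3565 in CGF. Their part in the falls of Slc38a3 and Slc7a10 was not tested. Slc16a1 in PFC astrocytes was at 22.7, 25.4 and 22.2 in GF and 6.88, 9.13 and 9.82 in SPF (1.42 ± 0.40, beside 0.35 ± 0.22 in Hip). The endothelial check markers, from the type richest in Slc16a1, lay between 17.3 and 35.6 in GF, between 14.03 and 22.9 in SPF and between 5.30 and 10.4 in CGF PFC astrocytes, and what part they had was not tested. Slc7a3, a further cationic amino acid transporter, was at 3.27, 3.27 and 2.64 in GF and 11.1, 6.10 and 9.99 in SPF PFC neurons (-1.56 ± 0.23, beside 0.63 ± 0.26 in Hip).

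Slc38a2 rose in GF mice in both regions. In PFC oligodendrocytes it was at 396, 552 and 403 CPM in GF, at 202, 209 and 227 in SPF and at 126, 265 and 282 in CGF, without overlap (1.09 ± 0.21 against SPF and 1.01 ± 0.21 against CGF). In PFC neurons it was at 62.3, 67.6 and 67.1 in GF and 43.5, 40.004 and 35.9 in SPF (0.72 ± 0.10). Slc16a11 was also higher in GF neurons of PFC, at 33.6, 27.2 and 30.2 against 14.9, 17.9 and 15.6 in SPF and 24.9, 15.2 and 21.6 in CGF (0.91 ± 0.16 against SPF). The neuronal check markers in PFC neurons, unlike those in Hip, were lower in GF than in SPF, between 709 and 744 against between 853 and 956, and lay between 718 and 802 in CGF. Their part in the neuronal results of PFC was not tested.

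The other PFC calls named for large differences were in glia and endothelium, and most of these were lost in some alternatives. Further calls, most of them in neurons, are not described singly. In neurons 20 members were called against SPF mice, and 18 to 22 with a mouse left out. Slc38a7 in astrocytes was lower in GF than in CGF mice (-0.86 ± 0.32, adjusted p = 0.030, edgeR quasi-likelihood). That call was lost with no filter on low counts, with DESeq2, without CGF mouse 17 or 19 and without any single GF mouse. Slc38a5 in endothelium was at 170, 162 and 145 CPM in GF, at 60.9, 70.7 and 27.1 in SPF and at 129, 20.2 and 40.9 in CGF (1.69 ± 0.43 against SPF, adjusted p = 0.003, beside 0.22 ± 0.39 in Hip), and the call against CGF (1.30 ± 0.40) was lost without CGF mouse 18 or 19. Slc7a5 in endothelium, at 616, 372 and 403 in GF and 210, 272 and 311 in CGF, differed by 0.87 ± 0.25 and lost the call without CGF mouse 17 or GF mouse 5. The neuronal check markers in the same nuclei lay between 769 and 1005 in GF, between 334 and 391 in SPF and between 273 and 329 in CGF mice. Those of endothelium were higher in GF as well, between 6787 and 7501, against between 4701 and 6161 in SPF and between 3850 and 5448 in CGF. The part of both lists was not tested. In oligodendrocytes Slc38a10 was lower in GF than in SPF mice (-1.27 ± 0.37, beside -0.30 ± 0.22 in Hip) and Slc16a7 higher (0.84 ± 0.27, beside 0.11 ± 0.16). Both calls were lost with thinned counts, that of Slc38a10 without SPF mouse 31 and that of Slc16a7 without SPF mouse 32. The neuronal check markers in these nuclei lay between 735 and 856 in GF, between 506 and 602 in SPF and between 394 and 503 in CGF. Their part was not tested. In microglia Slc43a2 (1.04 ± 0.35), Slc38a9 (0.94 ± 0.37, beside -0.17 ± 0.21 in Hip) and Slc7a7 (0.86 ± 0.30, beside 0.25 ± 0.20) were higher in GF than in SPF mice, on 16 to 25 UMIs in the SPF sums. Each call was lost without single SPF libraries, that of Slc43a2 without mouse 30 or 31 and the other 2 without mouse 31 or 32. Slc43a2 also lost its call with thinned counts. Slc38a9 in microglia fell to 0.50 without SPF mouse 32, and lost its call also without GF mouse 6, with DESeq2 and with only the 2 groups fitted. Slc38a9 was not particular to microglia. In PFC it was called higher in GF than in SPF mice in 4 of 4 types tested (0.65 to 0.98). Against CGF mice it was called higher in 2 of 4 (0.50 to 0.94 over the 4). Under a stricter gate Slc7a7 was not called, and Slc43a2 and Slc38a9 did not pass the filter on low counts. The microglial check markers lay between 3560 and 4235 in GF, between 2453 and 3242 in SPF and between 2627 and 3057 in CGF. Their part was not tested.

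Hip was compared with PFC in the same mice. Over all 18 libraries 50 of 114 member and type pairs were called, 33 higher and 17 lower in Hip, namely 11 of 27 in astrocytes, 8 of 23 in oligodendrocytes, 26 of 38 in neurons, 3 of 16 in microglia and 2 of 10 in endothelium, beside 51.8%, 35.7%, 74.8%, 24.6% and 19.3% of all genes. Within the 3 GF mice alone, an alternative added after the data were seen that does not cross the library split, 16 of 103 pairs were called, 7 higher and 9 lower in Hip, beside 9.16% of all genes in astrocytes, 4.04% in oligodendrocytes, 34.6% in neurons, 2.65% in microglia and 0.0741% in endothelium. The 16 are summed over types and most were in neurons, so they are not like for like with these shares. Of the 16, 9 were called the same way over all libraries, 3 the opposite way (Slc16a14, Slc16a7 and Slc38a6 in neurons) and 4 only there. This was not counted over all genes.

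**Figure D5:**
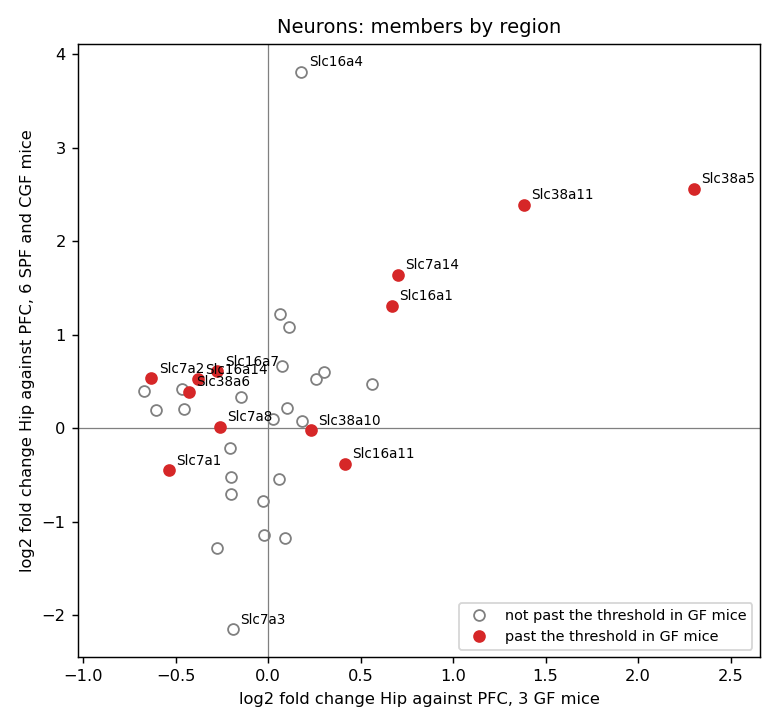
Log2 difference Hip minus PFC in neurons within the 3 GF mice (x axis) against that within the 6 SPF and CGF mice (y axis), 1 point per member, filled where the member passed the test in GF mice. Slc7a14 and Slc16a1 lie above 0 on both axes, while Slc16a4 is near 0 in GF mice (0.18) and at 3.81 in the others.

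Of the 16 pairs called in GF mice, 8 were called the same way in the 6 SPF and CGF mice and 5 the opposite way. The same counts over all genes were not made, and the side of the SPF and CGF mice crosses the library split. The 5 were all in neurons, namely Slc7a2 (-0.63 in GF mice and 0.53 in the others, Hip minus PFC), Slc16a7 (-0.27 and 0.61), Slc16a11 (0.42 and -0.38), Slc16a14 (-0.38 and 0.53) and Slc38a6 (-0.43 and 0.39). Among the 8 was Slc7a14 (chr3:31202858-31310378) in neurons. On the scale of this fit it was at 217, 193 and 191 CPM in GF Hip and 115, 126 and 127 in GF PFC, at 262, 314 and 270 in SPF Hip and 84.5, 92.7 and 95.6 in SPF PFC. Hip was higher in 9 of 9 mice, by 0.70 ± 0.08 in GF mice and 1.64 ± 0.08 in the others. Slc16a1 in neurons was higher in Hip by 0.67 ± 0.09 and 1.31 ± 0.09. Slc7a1 in neurons went the other way (-0.54 ± 0.08 and -0.45 ± 0.07). Slc38a3 in astrocytes was higher in PFC in 9 of 9 mice, at 105, 105 and 93.3 in GF Hip and 159, 222 and 138 in GF PFC, and the difference was -0.80 ± 0.16 in GF mice and -2.41 ± 0.12 in the others. Slc38a1 and Slc38a2 in astrocytes, within GF mice at -0.62 ± 0.16 and -0.67 ± 0.17, were the other glial pairs called there. In neurons Slc38a5 and Slc38a11 had the largest differences within GF mice, at 2.30 ± 0.25 and 1.38 ± 0.25, and both were low.

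Whether the difference between GF and SPF mice itself depended on the region was tested as an interaction over 18 libraries, and this test crosses the split. It called 22 of 38 members in neurons, 5 of 27 in astrocytes, 1 of 23 in oligodendrocytes, 0 of 10 in endothelium and 0 of 16 in microglia, beside 52.7%, 23%, 14%, 2.14% and 6.89% of all genes. At an unadjusted p under 0.05, 1 member stood in endothelium and 3 in microglia. Slc7a10 in astrocytes was 1 of these calls (1.33, Hip minus PFC, log2), and the others are given among the results for a closer look.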

How the data were processed

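Nuclei of 18 libraries (hippocampus and prefrontal cortex of 9 mice) were sequenced on the 10x platform. The authors deposited UMI counts per gene and barcode, made with Cell Ranger on mm10 after CASAVA 1.8 had written the reads, as the submitters' processing notes and methods name them. Whether intronic reads and strand were used in counting is not given in the sources used here. The reads themselves were not used.

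Barcodes with under 200 genes or over 10% mitochondrial UMIs were removed (1924 of 139924). A nucleus was given the type whose 10 markers had the highest mean log1p level, scaled by its percentile 99.8, if that score reached 0.3 and the next was at most 0.6 of it, and these limits were set after the scores were seen. No doublet caller was run, but 12945 nuclei in which a second list exceeded that limit were left out, and 256 nuclei lay within 10% of the score limit. Pairs of libraries shared 6 to 29 barcodes. UMIs were summed per library and type. A value in CPM (UMIs per 1000000) is scaled by the TMM factors of its fit, except in nuclei outside the 5 types and in neuron classes. Check markers and the comparison of 9640 genes between libraries are also in CPM without TMM factors. Tests were edgeR 4.0.16 quasi-likelihood fits over all genes passing filterByExpr (TMM, Benjamini-Hochberg, threshold 0.05) in R 4.3.3, with groups fitted per region and type, and an SE is the absolute log2 fold change over the square root of F. Group fits held all 3 groups, and type fits held the library as a block. Scripts were tested on simulated data. DESeq2 1.42.0, RLE scaling, no filter, thinned counts, a stricter gate, fits of 2 groups, a replicate block and each mouse left out were alternatives.

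The members and lists were chosen with earlier results of these data known. Members named are those with a mean of at least 20 CPM in some type. Per group comparison, region and type, up to 3 were also named, by largest difference among those called whose 2 groups did not overlap. A lack of overlap in these was thus part of the choice. Any other member given in a group or region comparison (such as Slc7a10, Slc38a2, Slc7a14, Slc16a4 and Slc16a7 in Hip) was named after its values were seen. The methods describe 3 mice per group. Hip and PFC libraries with the same number came from the same mouse, and the deviations of the 2 from their group means correlated at 0.139 to 0.323 in neurons and -0.0169 to 0.19 in the other types. Promoter sequences are from RefSeq and gene positions from GENCODE vM21. Results on 1 member and 2 other genes are not reported here, and the plots leave out that member.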

Additional observations from a re-analysis of the deposited data

Results flagged for a closer look

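The difference between GF and SPF mice itself differed between Hip and PFC for 28 member and type pairs, by the interaction term of the edgeR fit over both regions. The PFC side of that difference crosses the split between the 6 PFC libraries of SPF and CGF mice and the other 12, from which it cannot be told apart. Values are the log2 fold change of GF against SPF mice in Hip minus that in PFC.

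In astrocytes the value was -3.06 for Slc16a4, -1.20 for Slc7a2 and -0.79 for Slc38a9, all lower in Hip, and 1.33 for Slc7a10 and 1.55 for Slc38a3. Slc16a4 in oligodendrocytes was at -6.05, a value that depends on the prior count because the SPF PFC libraries held 0 UMIs, and it is no bound.

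In neurons 14 members had a lower value in Hip. Among them were Slc16a4 (-3.42), Slc16a5 (-1.67), Slc38a9 (-1.22), Slc7a2 (-1.04), Slc16a12 (-1.02), Slc7a6os (-0.99), Slc16a14 (-0.98), Slc7a14 (-0.93), Slc16a7 (-0.83), Slc16a1 (-0.73), Slc7a6 (-0.69), Slc38a6 (-0.68) and Slc7a8 (-0.31). The other 8 had a higher value in Hip, namely Slc38a1 (0.35), Slc38a7 (0.52), Slc16a11 (0.60), Slc38a3 (0.93), Slc7a4 (1.08), Slc16a13 (1.16), Slc38a4 (1.18) and Slc7a3 (2.14). Slc16a5, Slc16a13 and Slc38a4 were among the 14 members under 20 CPM in every type.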

How the results depend on the processing

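Some counts of called members moved by more than 1.5 times. For GF against SPF mice, Hip astrocytes went from 10 to 6 with thinned counts and to 6 with DESeq2, and Hip oligodendrocytes from 7 to 4 with each. PFC oligodendrocytes went from 4 to 7 with no filter, to 2 thinned and to 2 under the stricter gate. PFC endothelium went from 1 to 2 with only the 2 groups fitted. Hip microglia went from 1 to 2 with RLE, to 2 with only the 2 groups and to 0 with DESeq2, and PFC microglia from 3 to 0 under the stricter gate, where 2 of the 3 could not be tested. CGF against SPF in Hip went from 0 to 1 with DESeq2. Fewer nuclei or UMIs enter the thinned and stricter settings, and for the other changes the cause was not tested.

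Each mouse was left out in turn, which removes both of its libraries from a fit over both regions. Called members for GF against SPF then ran from 0 to 0 (Hip) and 1 to 2 (PFC) in endothelium, 7 to 10 and 7 to 10 in astrocytes, 4 to 7 and 2 to 4 in oligodendrocytes, 15 to 21 and 18 to 22 in neurons, and 0 to 2 and 0 to 4 in microglia. Hip microglia had 0 without SPF mouse 30 or 31, PFC microglia 0 without SPF mouse 31 and 1 without SPF mouse 32, Hip oligodendrocytes 4 without GF mouse 6 or SPF mouse 30, and PFC oligodendrocytes 2 without SPF mouse 32. GF against CGF ran from 33 to 45 pairs in Hip and 30 to 36 in PFC, CGF against SPF stayed at 0 in both, Hip against PFC ran from 46 to 52, the regional difference from 23 to 28, and types from 44 to 48 in Hip and 36 to 40 in PFC.

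Within GF mice alone, an alternative chosen after seeing the data, Hip against PFC fell from 50 to 16 called pairs, with 3 mice in place of 9. The direction reversed for 13 named pairs, Slc38a5 in endothelium (-0.10), Slc7a11 (-0.047), Slc16a4 (-0.30) and Slc7a2 (-0.30) in astrocytes, Slc16a4 (-0.23), Slc16a7 (-0.24) and Slc38a1 (-0.074) in oligodendrocytes, Slc16a14 (-0.38), Slc16a7 (-0.27), Slc38a7 (0.061), Slc38a6 (-0.43) and Slc7a4 (0.094) in neurons and Slc38a9 in microglia (-0.062).

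With the mouse as a replicate block, pairing the regions, 50 pairs were called between Hip and PFC (50 without it) and 31 for the regional difference (28 without it). Of the named calls the block removed 1, Slc16a9 between the regions in neurons. Without the library block the type calls were 43 in Hip (47 with it) and 38 in PFC (39 with it). Among named values, 1159 of the fits with a mouse left out kept their side of the threshold and 110 lost it, all with their direction.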
